A study of Mus musculus with 14 samples.

Results

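The genes described here encode the enzymes that build and finish mucin-type O-glycans and related chain ends. They were chosen by name from the annotation of the array: the Galnt, Gcnt, B3gnt, B4galnt, B3galt, B4galt, Fut, St3gal, St6gal, St6galnac and St8sia families, together with A4gnt and C1galt1. The rule found 72 genes among the 18820 that were measured, each represented by the probe set with the highest mean. They comprised 18 Galnt genes, C1galt1, 5 Gcnt, 7 B3gnt, 4 B4galnt, 5 B3galt and 6 B4galt genes, A4gnt, 7 Fut, 5 St3gal, 7 St6gal or St6galnac and 6 St8sia genes. A further 6 genes of these families (B3gnt4, B3gntl1, B4galt2, Galnt5, St3gal6 and St6galnac2) were represented by probe sets that list several genes and were not analysed here, and Fut1 had no value here.

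Mucin-type O-glycosylation starts in the Golgi, where Galnt enzymes attach N-acetylgalactosamine to serine or threonine. C1galt1 adds galactose to make the core 1 structure, Gcnt enzymes add branches, and B3gnt, B3galt and B4galt enzymes lengthen the chains. Fucosyltransferases, sialyltransferases, B4galnt enzymes and A4gnt then cap them, and several members act on glycolipids or N-glycans rather than on mucins. In the stomach, A4gnt caps the glycans of gland mucin with a terminal N-acetylglucosamine, and Fut2 makes the fucosylated H structures of surface mucin. In the intestine, sialylated and sulfated mucins and the B4galnt2-made Sd(a) structure are common.

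Expression was measured on 14 arrays from mice of a mixed C57Bl6j/CBA background, both sexes, all carrying Cdx2-/fl / Lgr5-EGFP, that is 1 deleted and 1 floxed Cdx2 allele and an Lgr5-EGFP-Ires-CreERT2 knock-in, whose Cre acts in Lgr5-positive stem cells. Stem cells (SCs) were sorted for high EGFP from clonal organoids. They were control SI SCs from small intestine (n = 3) and control Sto SCs from stomach (n = 2). Control Sto SCs and the Cdx2null SCs described next were kept in Sto medium (ENRWfg: EGF, Noggin, R-spondin, Wnt, Fgf10 and gastrin). The paper states the same medium for the control SI SCs in its heatmap, which held fewer of them than used here. It also states that control SI SCs could be passaged in SI medium. The SC labels name no medium, so it is not certain that all control SI SCs were kept in Sto medium. Cdx2null / Lgr5-EGFP SI SCs (Cdx2null SI SCs, n = 2) came from organoids exposed to 4-hydroxytamoxifen, which the controls were not. The exposure activates Cre, and the paper reports by genotyping that the floxed allele was then replaced by its inactivated form. Whole control organoids, unsorted, were grown in SI medium (ENR, which lacks the last 3 of those factors), with 3 arrays of SI organoids and 2 of Sto organoids, or in Sto medium, with 1 array of each origin. Ages fell within adult life. The sources do not say that each sample came from an animal of its own, so p-values measure the spread between these samples, which may be technical.

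Several arrays did not behave as their groups. The library labelled SI organoids in SI medium 1 had Cdx2 at 5.52 on the log2 scale of the array, against 9.92 and 9.67 in the other 2 of its group, and the gastric factor Sox2 at 9.21 against 3.69 and 3.85, which goes against its label. The comparisons that use it are given with and without it. The library labelled Cdx2null SI SCs 1 had Cdx2 at 8.41 and Sox2 at 3.68, against 4.88 and 9.83 in Cdx2null SI SCs 2, while control SI SCs had Cdx2 between 8.94 and 10.05. The Cdx2 probe set can also read exons that remain after the deletion, so this level alone does not check it. The same probe set read 4.88 in Cdx2null SI SCs 2, however. Other markers of Cdx2null SI SCs 1 were mixed. Cdh17 was at 8.44, against 6.04 in Cdx2null SI SCs 2 and 11.09 to 11.51 in control SI SCs. Olfm4 (3.79) and Cldn18 (10.91) lay nearer to Cdx2null SI SCs 2 (3.70 and 11.95) than to control SI SCs. Whether the deletion was complete in this library was not tested. The arrays of SI organoids in SI medium 3 and of control SI SCs 3 held values rounded before the log was taken and had an upper quartile of 7.57 and 7.50, in that order, against 7.79 to 7.90 elsewhere. Sex-linked genes marked 3 arrays as male (control SI SCs 1 and 3, and Sto organoids in Sto medium 1), so both other SC groups were female. The mean of the epithelial markers Epcam, Cdh1, Krt8 and Krt18 lay between 11.83 and 12.22 on every array, whereas the immune list stayed between 3.65 and 4.03 and the endothelial list between 3.46 and 3.79. Array medians ran from 4.72 to 5.05.

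The promoters of 4 members on which the results turn are shown, B4galt4 and St6galnac4 because both were lower in Cdx2null and Sto SCs, B4galnt2 and A4gnt because they spanned wide ranges between arrays. Each is the 250 bases before the transcription start, 5′ to 3′ on the strand of the gene, from RefSeq on GRCm38.p6. B4galt4 lies at chr16:38742009-38742258 (+), St6galnac4 at chr2:32586828-32587077 (+), B4galnt2 at chr11:95914872-95915121 (-) and A4gnt at chr9:99612252-99612501 (+). Capitals mark TTTAT, the core of the site that Cdx proteins bind, or the GATA sequences TGATAA and AGATAA, read on both strands.
B4galt4: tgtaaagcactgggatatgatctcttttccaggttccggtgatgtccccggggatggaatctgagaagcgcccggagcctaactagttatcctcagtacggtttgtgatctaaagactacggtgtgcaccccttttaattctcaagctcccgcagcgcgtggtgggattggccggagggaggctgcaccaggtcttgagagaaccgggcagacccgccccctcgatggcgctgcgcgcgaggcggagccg
St6galnac4: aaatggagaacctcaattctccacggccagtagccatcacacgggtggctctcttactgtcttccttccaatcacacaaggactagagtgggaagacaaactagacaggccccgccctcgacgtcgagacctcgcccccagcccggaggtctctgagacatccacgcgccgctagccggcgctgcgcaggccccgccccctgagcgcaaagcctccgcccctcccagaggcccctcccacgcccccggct
B4galnt2: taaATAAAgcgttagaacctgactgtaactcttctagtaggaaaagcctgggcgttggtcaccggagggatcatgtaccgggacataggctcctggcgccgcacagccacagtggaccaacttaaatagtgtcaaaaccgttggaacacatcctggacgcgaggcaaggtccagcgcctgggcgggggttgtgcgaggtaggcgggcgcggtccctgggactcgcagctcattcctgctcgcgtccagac
A4gnt: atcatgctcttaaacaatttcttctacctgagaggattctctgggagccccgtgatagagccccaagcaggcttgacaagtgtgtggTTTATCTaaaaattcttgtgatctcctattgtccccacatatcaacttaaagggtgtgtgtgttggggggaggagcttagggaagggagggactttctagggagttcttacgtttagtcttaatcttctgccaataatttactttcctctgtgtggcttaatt

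The windows of B4galt4 and St6galnac4 held none of these letters, B4galnt2 held TTTAT from base 247 to base 243 before the start, and A4gnt held TTTAT from base 163 to base 159, overlapping AGATAA from base 162 to base 157. These matches describe the letters in a window and not binding. St8sia6 and St3gal4, not shown, spanned wider ranges than A4gnt (6.99 and 5.26 against 5.17 on the log2 scale). Their windows held none of these letters. By gene, TTTAT was found in at least 1 window of 15 of the 53 members matched in the RefSeq table (28.3%) and of 41.11% of all 27025 genes. TGATAA was found in 4 members (7.55%), beside 9.21% of genes, and AGATAA in 6 (11.3%), beside 11.43%. Counted by single window of this length, of which there were 32851, the shares that held these letters were 37.26%, 7.94% and 9.99% in the same order.

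On every array 29 of the 72 genes lay above the median of that array, 23 lay below it, and 20 were mixed. The Galnt genes divided evenly: Galnt1, Galnt2, Galnt3, Galnt4, Galnt6, Galnt7, Galnt10, Galnt11 and Galnt12 were above the median on all 14 arrays and the other 9 below it on all 14. C1galt1, the single core 1 enzyme, ran from 8.74 to 11.23. B3gnt6, the core 3 synthase, stayed between 3.69 and 4.43, below the median on every array, and St6galnac1, the sialyl-Tn synthase, was above it on 1 array (5.28 in control SI SCs 2). Of the 6 St8sia genes, 5 were below the median throughout. The widest ranges over the 14 arrays were those of B4galnt2 (3.97 to 11.76) and St8sia6 (3.64 to 10.64). Background signal keeps silent genes above 0 on such arrays, so differences of dim genes are compressed, and levels are compared only for the same probe set.

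**Figure D1:**
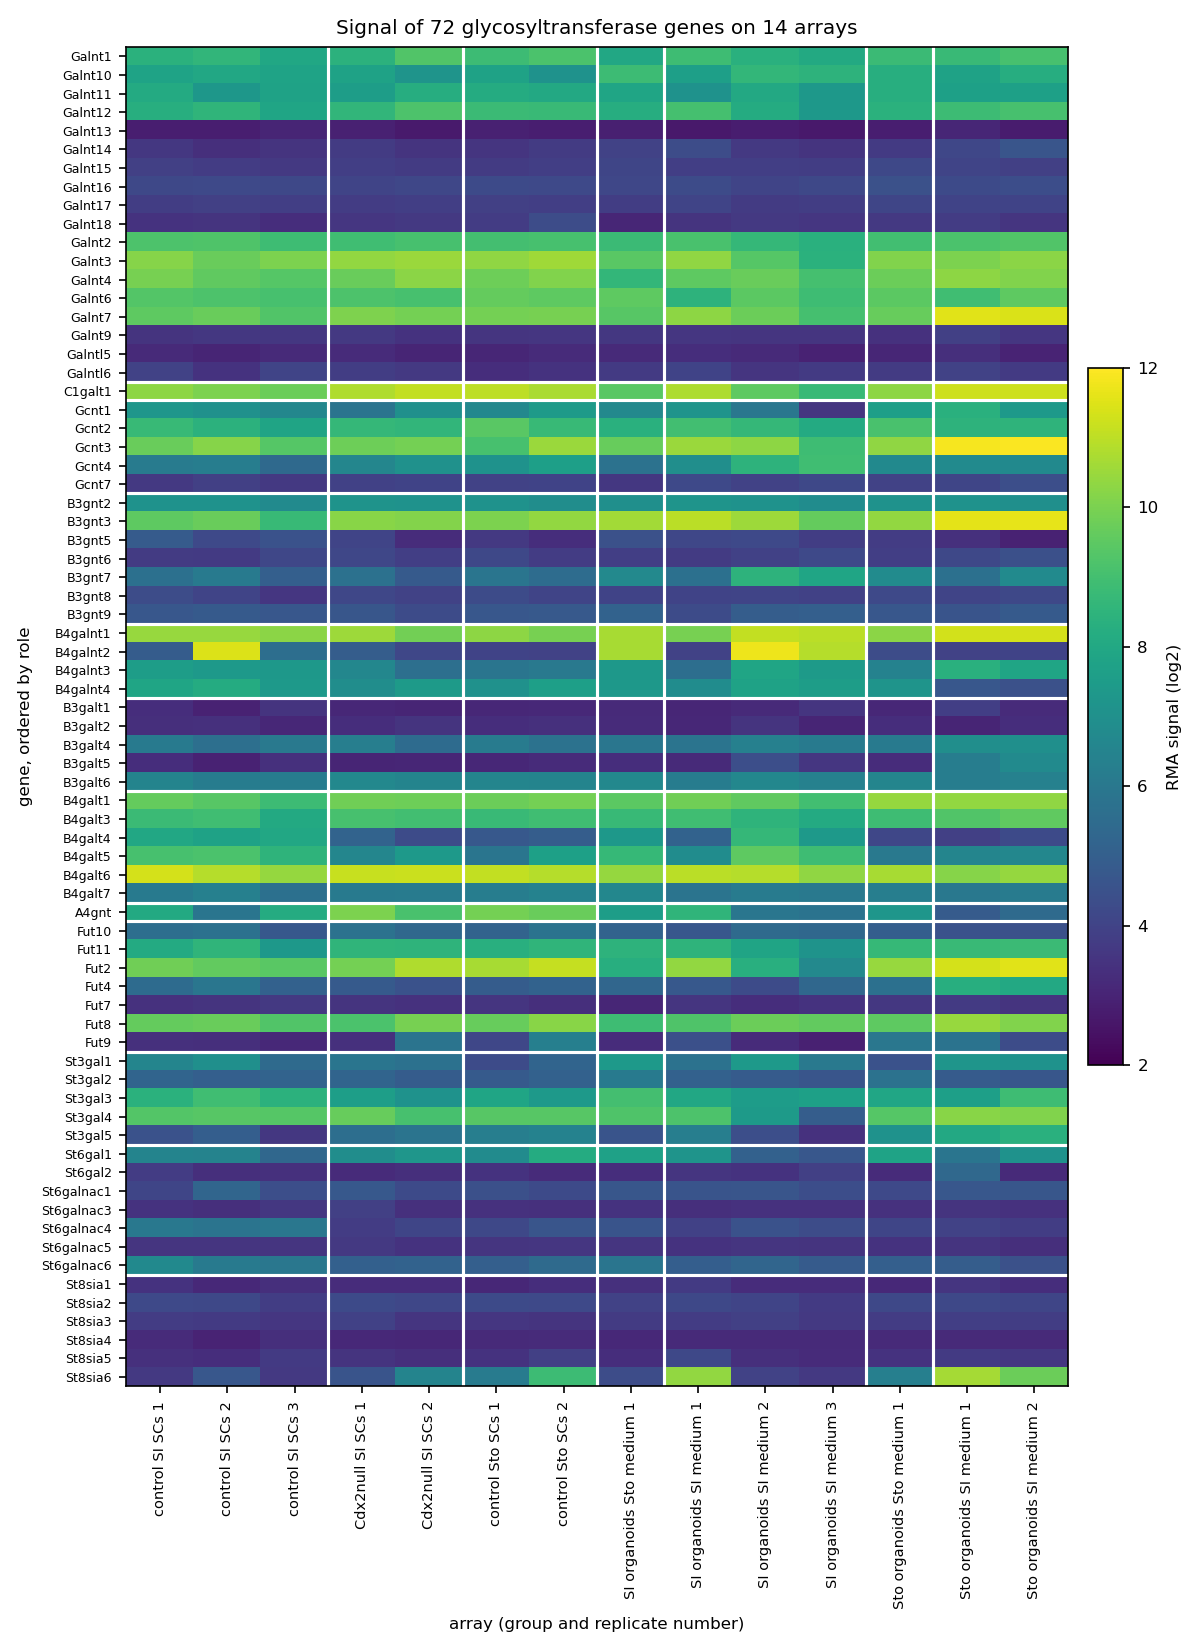
RMA signal (log2, colour scale from 2 to 12) of the 72 glycosyltransferase genes (rows, ordered by role, with white lines between roles) on the 14 arrays (columns, with white lines between groups); rows compare arrays for 1 probe set and are not comparable with each other. B4galnt2 (3.97 to 11.76) and St8sia6 (3.64 to 10.64) vary most, and 23 genes stay below the median of every array.

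The effect of Cdx2 loss on these genes was read from Cdx2null SI SCs set against control SI SCs. The members called were B4galt4, which adds galactose to N-acetylglucosamine with a preference for the sulfated sugar, and St6galnac4, which adds a further sialic acid to sialylated core 1, and both fell. B4galt4 had levels of 8.01, 7.77 and 8.01 in control SI SCs, against 5.19 and 4.30 in Cdx2null SI SCs. St6galnac4 was at 6.02, 5.85 and 5.98 against 3.76 and 4.11. Both Cdx2null arrays lay below all 3 control arrays for either gene. B4galt4 fell 9.10-fold (log2 difference -3.19, SE 0.26, adjusted p = 0.00322 by limma) and St6galnac4 fell 4.04-fold (-2.02, SE 0.19, adjusted p = 0.00578). A call needed an adjusted p below 0.05 over all 18820 genes and a change of at least 2-fold. The 2 members called of 72 are 2.78%, beside 1.52% of all genes, with 0.93% higher and 0.595% lower. The median member differed by 0.02, and the median gene by 0.03. Without the library labelled Cdx2null SI SCs 1, B4galt4 differed by -3.63 (adjusted p = 0.00241) and St6galnac4 by -1.84 (adjusted p = 0.0242), and B4galnt3 was called as well (-1.77, adjusted p = 0.0162), while A4gnt differed by 1.75 (adjusted p = 0.573). In a fit over all 14 arrays B4galt4 was no longer called (adjusted p = 0.383). That fit shares its spread with the library labelled SI organoids in SI medium 1. B4galt4 was at 5.16 there, against 8.67 and 7.39 in the rest of its group.

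The same genes were read in control Sto SCs, which differ from control SI SCs by organ of origin. B4galt4 was at 4.74 and 4.96 there, 8.45-fold lower than in control SI SCs (-3.08, SE 0.26, adjusted p = 0.00265), and St6galnac4 at 4.17 and 4.64, 2.91-fold lower (-1.54, SE 0.19, adjusted p = 0.0104). Also lower was B4galnt3, which makes the LacdiNAc end structure, at 5.90 and 6.05 against 7.56, 7.37 and 7.32 (-1.44, SE 0.28, adjusted p = 0.0464). St3gal5, the synthase that starts the ganglioside series, was the called member that was higher, at 6.26 and 6.42 against 4.53, 4.98 and 3.61 (3.90-fold, 1.97, SE 0.37, adjusted p = 0.0407). For these genes no array of one group overlapped the other group. The 4 members called are 5.56% of 72, beside 2.86% of all genes (1.94% higher and 0.914% lower). Averaging both probe sets of B4galnt3, which correlated at r = 0.27 over the 14 arrays, gave -0.69 (adjusted p = 0.189), and leaving out any single array of the groups ended its call (adjusted p 0.0973 to 0.236). St3gal5 was not called without control SI SCs 1, control Sto SCs 1 or control Sto SCs 2 (adjusted p 0.11 to 0.204), and St6galnac4 was not called without control Sto SCs 1 (-1.31, adjusted p = 0.073). With sex as a term, chosen after seeing the data, B4galt4 and St6galnac4 kept their calls in the Cdx2null comparison (adjusted p = 0.0272 and 0.0429). In the Sto comparison B4galt4 kept its call (adjusted p = 0.0253), whereas St6galnac4, St3gal5 and B4galnt3 did not (adjusted p = 0.0792, 0.222 and 0.239). The term for sex sets the Cdx2null and Sto SC arrays against control SI SCs 2, the only control SI SC array of their sex. The fit over all 14 arrays, which also holds the library labelled SI organoids in SI medium 1, left St6galnac4 called in the Sto comparison. B4galt4, St3gal5 and B4galnt3 were not called there (adjusted p = 0.168 to 0.389).

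**Figure D2:**
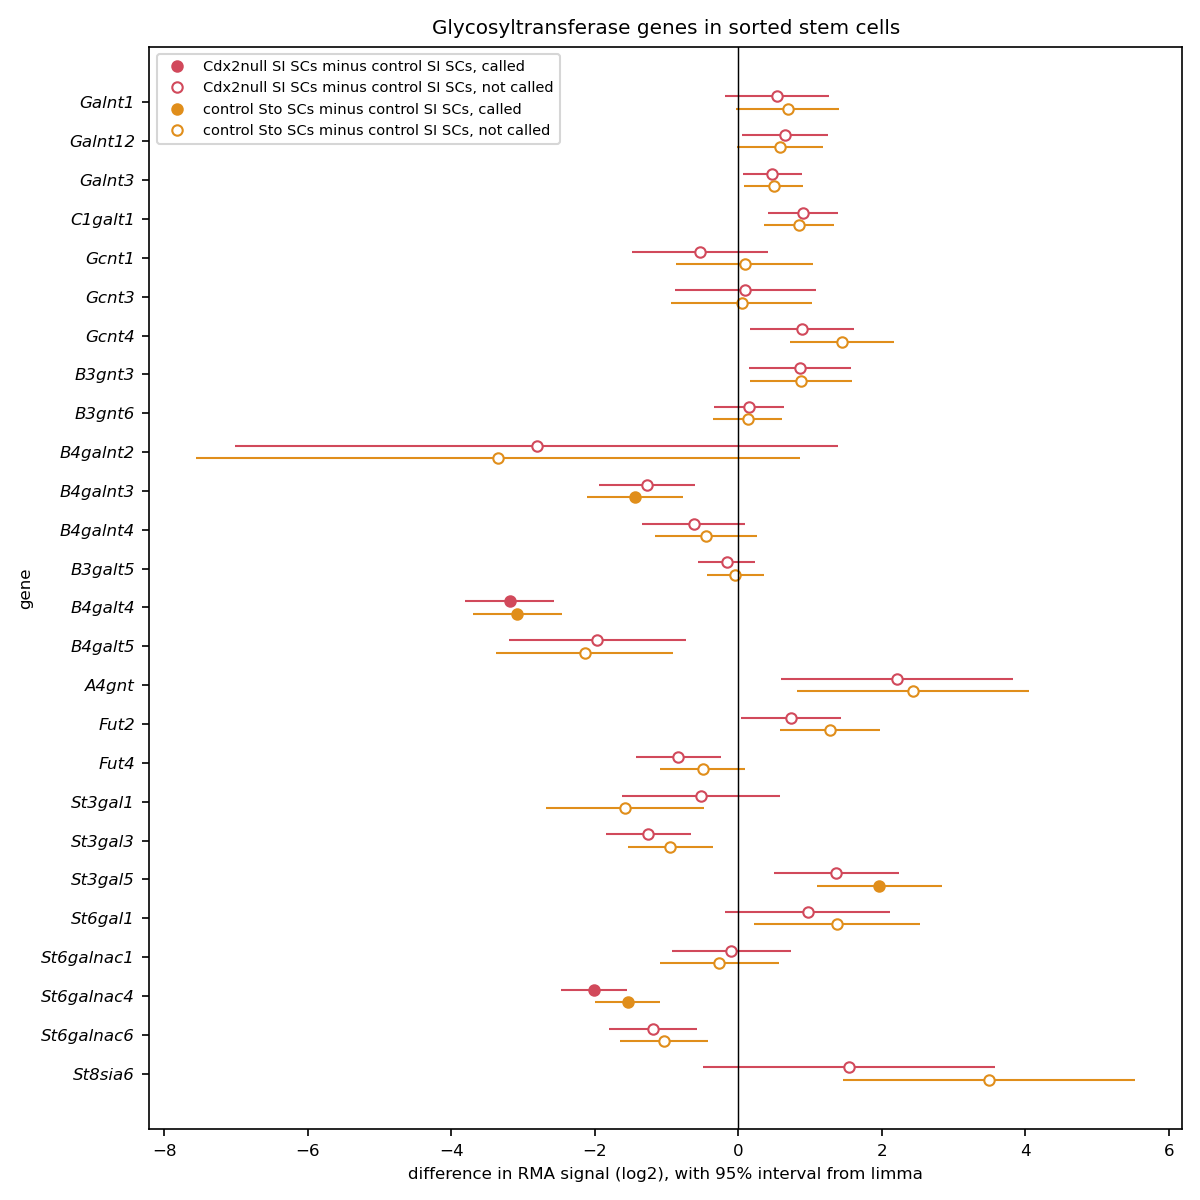
Log2 differences in sorted SCs with their 95% intervals from limma, for the members named by the rule and those named after their values were seen; red marks Cdx2null SI SCs (n = 2) minus control SI SCs (n = 3), orange marks control Sto SCs (n = 2) minus control SI SCs, and filled points were called. B4galt4 and St6galnac4 are filled in both, B4galnt3 and St3gal5 in the Sto comparison only, without a test of that difference, and both comparisons share the control SI SCs.

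Arrays of the groups did not overlap for 26 of the 72 members (36.1%) between Cdx2null and control SI SCs, beside 24.9% of all genes, and for 30 (41.7%) between control Sto and control SI SCs, beside 30.6%. A change of at least 2-fold was seen for 11 members (15.3%, against 5.07% of genes) and 15 members (20.8%, against 6.64%), most of which did not pass the test. Marker genes moved with both comparisons: the mean of the 5 enterocyte markers was 6.07 to 6.68 in control SI SCs, 3.62 to 3.71 in Cdx2null SI SCs and 3.64 to 3.69 in control Sto SCs, that of the goblet markers 8.38 to 9.35, 6.75 to 6.77 and 6.50 to 6.77, and that of the stomach markers, Muc6 included, 6.32 to 6.76, 9.73 to 10.92 and 11.36 to 11.43. Agr2 of the goblet list went the other way, at 12.17, 11.74 and 12.29 in control SI SCs. It was at 12.50 and 12.43 in Cdx2null SI SCs and at 12.65 and 12.40 in control Sto SCs. Sox2 of the stomach list stayed at 3.68 in Cdx2null SI SCs 1. The part of these markers in the member differences was not tested. Both comparisons share the control SI SCs, so their values are given side by side. The following genes without a call, and B4galt5, St6galnac6, Gcnt4, St3gal1, St3gal3, St3gal4 and St8sia6 throughout, were named after their values were seen where the rule does not name them.

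Of the enzymes that start and branch the chains, 0 of 18 Galnt genes were called in either comparison, with log2 differences from -0.40 to 0.65 in Cdx2null and from -0.44 to 0.69 in Sto SCs. C1galt1 had levels of 10.31, 10.02 and 9.77 in control SI SCs, 10.79 and 11.07 in Cdx2null SI SCs, and 11.02 and 10.73 in control Sto SCs. The groups did not overlap, and the differences of 0.90 (adjusted p = 0.112) and 0.84 (adjusted p = 0.0878) did not pass. Gcnt3, which makes core 2 and core 4 branches of mucins, differed by 0.10 and 0.05 (95% intervals -0.89 to 1.08 and -0.94 to 1.03). Gcnt4, another core 2 branching enzyme, differed by 0.89 in Cdx2null SI SCs and by 1.44 in control Sto SCs (adjusted p = 0.0594). B3gnt3, which extends core 1, differed by 0.86 (adjusted p = 0.3) and 0.87 (adjusted p = 0.208).

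B4galt5, a lactosylceramide synthase, followed the pattern of B4galt4 in sign without a call. It had levels of 9.11, 9.18 and 8.51 in control SI SCs, 6.58 and 7.36 in Cdx2null SI SCs and 5.90 and 7.68 in control Sto SCs, so the groups did not overlap (-1.96, adjusted p = 0.169, and -2.14, adjusted p = 0.0878). The other 4 B4galt genes differed by at most 0.53 on the log2 scale in either comparison. B4galnt2 split the control group: it was at 11.49 in control SI SCs 2 but at 4.92 and 5.62 in control SI SCs 1 and 3, at 4.96 and 4.11 in Cdx2null SI SCs, and at 4.02 and 3.97 in control Sto SCs. Its differences (-2.81, SE 1.78, and -3.35, SE 1.78) rest on that array, and without it they were -0.74 (adjusted p = 0.417) and -1.28 (adjusted p = 0.139). With sex as a term B4galnt2 was called in both (-6.95, adjusted p = 0.00355, and -7.49, adjusted p = 0.00246), a fit in which control SI SCs 2 is the only control SI array of the same sex as the Cdx2null and Sto arrays.

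A4gnt, the gastric capping enzyme, was at 8.07, 5.88 and 8.17 in control SI SCs, at 10.04 and 9.13 in Cdx2null SI SCs and at 9.92 and 9.70 in control Sto SCs. Every Cdx2null and Sto array was above every control SI array, with differences of 2.21 (SE 0.68, adjusted p = 0.239) and 2.44 (SE 0.68, adjusted p = 0.128) on average, and neither difference passed. Without control SI SCs 2, the array with the low value, the differences were 1.46 (adjusted p = 0.115) and 1.69 (adjusted p = 0.0559). With sex as a term, which again sets these arrays against control SI SCs 2, A4gnt was called in both (3.71, adjusted p = 0.0144, and 3.93, adjusted p = 0.011). Muc6, the gland mucin whose glycans carry this cap, had levels of 11.05, 9.66 and 10.41 in control SI SCs, 12.34 and 12.49 in Cdx2null SI SCs and 12.65 and 12.44 in control Sto SCs, and was called in the Sto comparison (4.50-fold higher, 2.17, SE 0.37, adjusted p = 0.0293). Fut2, the secretor enzyme, was at 9.85, 9.60 and 9.43 against 9.90 and 10.82 in Cdx2null SI SCs and 10.69 and 11.11 in control Sto SCs (0.73, adjusted p = 0.398, and 1.28, adjusted p = 0.0765). Fut4, which makes Lewis x, differed by -0.84 (adjusted p = 0.22) and -0.49 (adjusted p = 0.433).

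Among sialyltransferases, St3gal5 was at 5.61 and 5.87 in Cdx2null SI SCs, above all 3 control SI SCs (1.37, SE 0.37, adjusted p = 0.176). St6galnac6, which acts on gangliosides, had levels of 6.76, 6.11 and 5.97 in control SI SCs, against values between 5.04 and 5.44 on the other 4 SC arrays (-1.18, adjusted p = 0.0984, and -1.04, adjusted p = 0.0944). St3gal3 differed by -1.25 (adjusted p = 0.075) in Cdx2null SI SCs. St8sia6, which adds a second sialic acid to O-glycans, was at 3.66, 4.70 and 3.67 in control SI SCs, at 4.60 and 6.50 in Cdx2null SI SCs and at 6.16 and 8.84 in control Sto SCs. The Cdx2null arrays overlapped the controls and the Sto arrays did not (1.54, adjusted p = 0.598, and 3.49, SE 0.86, adjusted p = 0.0916).

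**Figure D3:**
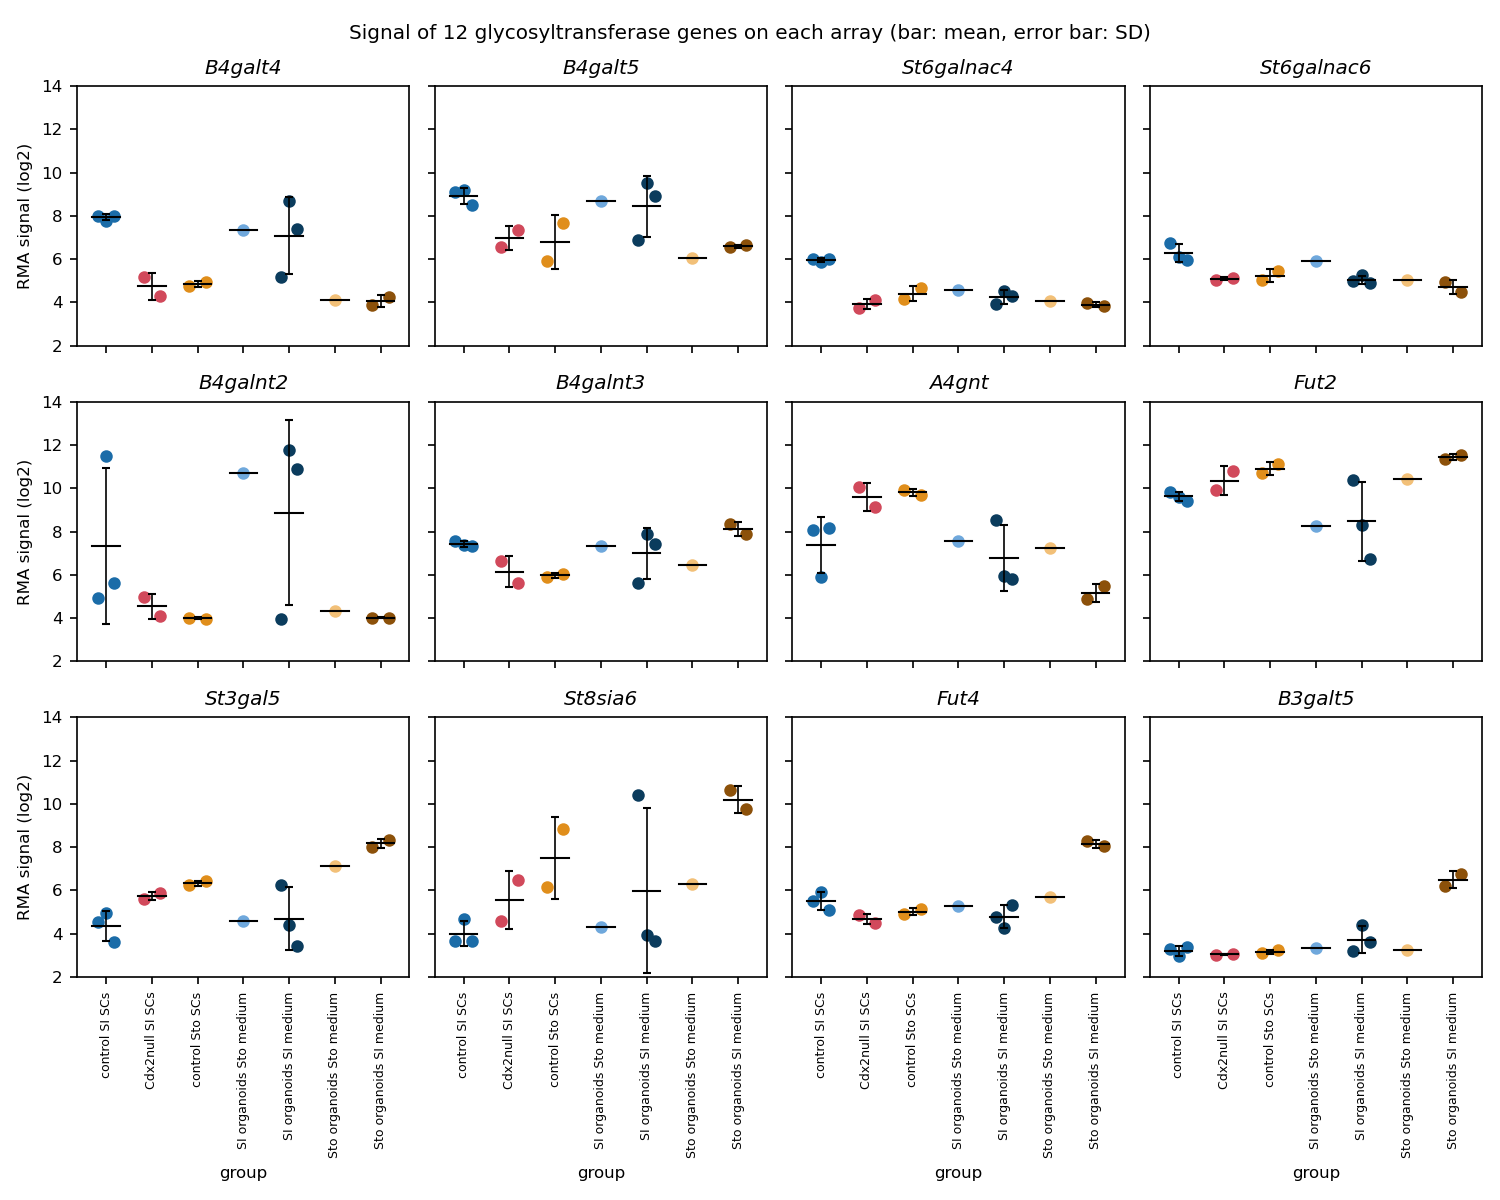
RMA signal (log2, y axis) of 12 members in each of the 7 groups (x axis), 1 point per array, with a horizontal bar at the mean and an error bar of 1 SD where the group has more than 1 array. B4galt4 and St6galnac4 are lower in Cdx2null and Sto SCs than in control SI SCs, B4galnt2 splits the 3 control SI SCs (4.92, 11.49 and 5.62), and Fut4 and B3galt5 are high only in Sto organoids in SI medium.

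Cdx2null SI SCs were compared with control Sto SCs directly to ask how far they still differed. By limma 0 of the 72 members were called, beside 0% of all genes, and 1 member (Galnt6, -0.45) and 286 genes had an unadjusted p below 0.05. The methods' t-test called 0 members before and after adjustment. The differences of the 72 members ran from -1.95 for St8sia6 (95% interval -4.18 to 0.28) to 1.06 for St3gal1 (-0.15 to 2.26), with a median of -0.03. B4galt4 differed by -0.11 (-0.79 to 0.58), C1galt1 by 0.05 (-0.48 to 0.59) and St6galnac4 by -0.47 (-0.97 to 0.03). The arrays did not overlap for 19 members (26.4%), beside 23.8% of genes. With 2 arrays in each group these intervals are wide, and a missed threshold does not show that the groups are alike. The Cdx2null pair was also uneven. Cdx2null SI SCs 1 had Cdx2 at 8.41 and Sox2 at 3.68, where control Sto SCs had 5.08 and 4.67, and 9.40 and 10.07. The differences above are means over both Cdx2null arrays, in which St8sia6 was at 4.60 and 6.50 and B4galt4 at 5.19 and 4.30.

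Origin was examined next in whole organoids grown in SI medium, which lets cells differentiate. With all arrays, 2 of the 72 members were called (2.78%), beside 1.41% of all genes (0.526% higher and 0.887% lower). Fut4 was at 8.28 and 8.03 in Sto organoids and at 4.76, 4.28 and 5.33 in SI organoids, 10.3-fold higher (3.37, SE 0.34, adjusted p = 0.0347). B4galnt4, the other LacdiNAc enzyme, was at 4.71 and 4.46 against 6.87, 7.74 and 7.58, 7.04-fold lower (-2.81, SE 0.31, adjusted p = 0.0393). The groups did not overlap for either gene, nor for 29 of all 72 members (40.3%), beside 34.9% of genes. Without the library that goes against its label, the arrays did not overlap for 49 members (68.1%), beside 57.4% of genes. Leaving out any array of these groups other than the library labelled SI organoids in SI medium 1 left 0 members called (adjusted p of Fut4 0.0835 to 0.349, of B4galnt4 0.112 to 0.349).

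Without the library labelled SI organoids in SI medium 1, 22 members were called (30.6%), beside 13.9% of all genes. Of these, 16 were higher in Sto organoids, where 7.57% of genes were higher, and 6 were lower, where 6.29% were lower. Fut4 was higher by 3.35 (adjusted p = 0.00275) and B4galnt4 lower (-3.08, adjusted p = 0.000406). Without that library and both rounded arrays, an alternative chosen after seeing the data, 13 members were called (8 higher and 5 lower), beside 6.31% of all genes.

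Among the chain starters and branchers of that fit, Galnt7 (2.10), Galnt12 (1.23), C1galt1 (2.09), Gcnt1 (3.15) and Gcnt3 (2.30) were higher in Sto organoids. C1galt1 was at 11.22 and 11.23 there against 9.53 and 8.74 in SI organoids 2 and 3, and Gcnt3 at 11.86 and 11.92 against 10.29 and 8.91, so both pairs stood apart. Gcnt4 (-1.95) and B3gnt7 (-1.94) were lower, while B3gnt3 (1.54) was higher. The library labelled SI organoids in SI medium 1 had C1galt1 at 10.78, Gcnt3 at 10.51, Gcnt4 at 6.94 and Galnt7 at 10.31, each between the Sto organoids and the other SI organoids.

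The largest difference was that of B4galnt2, at 3.99 and 4.02 in Sto organoids, 11.76 and 10.90 in SI organoids 2 and 3, and 3.98 in the library labelled SI organoids in SI medium 1. Without that library it was 160-fold lower in Sto organoids (-7.32, SE 0.31, adjusted p = 8.73e-05), and with it the difference was -4.87 (SE 2.46, adjusted p = 0.42). B4galt4, at 3.88 and 4.25 against 8.67 and 7.39, was 15.6-fold lower without that library (-3.96, SE 0.43, adjusted p = 0.00273) and differed by -3.01 with it (adjusted p = 0.25). B4galt5 was 6.13-fold lower without it (-2.62, adjusted p = 0.00201). B3galt5, which makes type 1 chains, was at 6.22 and 6.77 against 4.39 and 3.60 (2.50, SE 0.33, adjusted p = 0.00579), and with the library at 3.20 included it differed by 2.77 (adjusted p = 0.0584). B4galt1 (1.08) and B4galt3 (1.10) were also higher.

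Among fucosyltransferases, Fut2 was at 11.36 and 11.54 in Sto organoids against 8.30 and 6.71 in SI organoids 2 and 3 (3.95, SE 0.50, adjusted p = 0.00492), with 10.38 in the library that goes against its label. Fut9 (1.98) and Fut11 (1.31) were higher too. Of the sialyltransferases, St8sia6 was at 10.64 and 9.75 against 3.95 and 3.64 (84.1-fold, 6.39, SE 0.33, adjusted p = 0.000167). St3gal5 was at 8.02 and 8.34 against 4.42 and 3.42 (19.2-fold, 4.26, SE 0.35, adjusted p = 0.00104). St3gal4 was at 10.22 and 10.09 against 7.45 and 4.96 (3.95, SE 0.74, adjusted p = 0.0183), its lowest value being that of SI organoids 3, 1 of the 2 rounded arrays. With the library included these 4 genes (Fut2, St8sia6, St3gal5 and St3gal4) were not called (adjusted p 0.145 to 0.437).

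**Figure D4:**
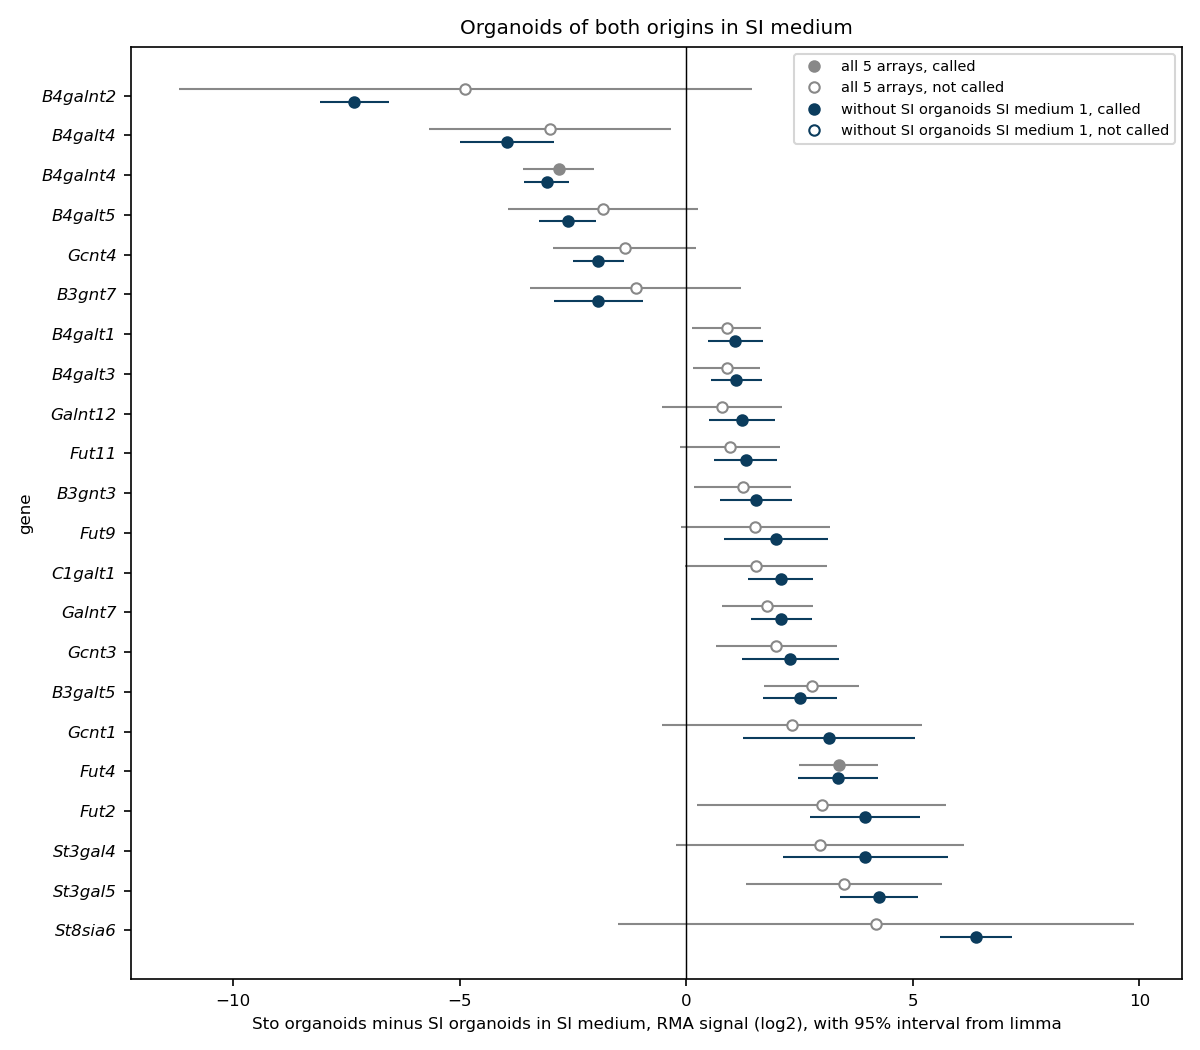
Log2 difference of Sto organoids (n = 2) minus SI organoids in SI medium, with 95% intervals from limma, for the 22 members called without the library labelled SI organoids in SI medium 1; grey is the fit with all 5 arrays and dark blue the fit without that library, and filled points were called. Only Fut4 and B4galnt4 are filled in grey, and the direction of all 22 genes is the same in both fits.

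Markers of differentiated cells moved with these differences. The 4 pit cell markers Muc5ac, Gkn1, Gkn2 and Tff1 had a mean of 12.46 and 12.53 in Sto organoids in SI medium and between 4.09 and 6.21 on the other 12 arrays. The mean of the 5 enterocyte markers was 4.66 and 5.33 in Sto organoids and reached 10.70 in SI organoids in SI medium, where the library labelled 1 was lowest at 3.80. The mean of the 5 measured goblet markers was 8.97 and 9.31 in Sto organoids and reached 11.92 in SI organoids, where the library labelled 1 was lowest at 6.80. These markers split between Sto organoids and SI organoids 2 and 3. Muc2 was at 4.45 and 4.22 against 11.58 and 11.21, and Tff3 and Spink4 were also lower in Sto organoids. Clca1 was higher there, at 12.91 and 13.07 against 12.01 and 9.93, and Agr2 overlapped. Lgr5, the stem cell receptor, had levels of 4.20 and 4.32 in Sto organoids and between 9.29 and 11.56 elsewhere. The part of cell composition in the glycosyltransferase differences was not tested, and in such bulk samples fewer cells of a type and less RNA per cell cannot be told apart.

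Sorted SCs were compared with whole organoids of the same origin, a comparison in which sorting and medium cannot be told apart. For stomach, 6 of the 72 members were called (8.33%), beside 6.03% of all genes (3.74% higher in SCs and 2.3% lower). A4gnt was at 9.92 and 9.70 in Sto SCs and 4.87 and 5.47 in Sto organoids in SI medium, 24.9-fold higher in SCs (4.64, SE 0.97, adjusted p = 0.0202). B4galnt4 was higher as well, at 7.05 and 7.64 against 4.71 and 4.46 (2.76, SE 0.36, adjusted p = 0.00268). The other 4 were higher in organoids: B3galt5 (-3.33, adjusted p = 0.000919), Fut4 (-3.13, adjusted p = 0.00115), St3gal1 (-2.41, adjusted p = 0.0421), which sialylates core 1, and Galnt7 (-1.56, adjusted p = 0.0224). St3gal1 has another, dimmer probe set (mean 4.47 against 6.11), which correlated with the one used at r = -0.09 over the 14 arrays. The arrays of both groups were apart for all 6, and for 48 of the 72 members (66.7%), beside 56.9% of all genes. The fit shares its spread with the library that goes against its label, and without that library 11 members were called (15.3%), beside 9.23% of all genes (5.44% higher in SCs and 3.8% lower). These were the same 6, with A4gnt at an adjusted p of 0.00206, and Gcnt3 (-2.09), B3gnt3 (-1.42), B4galnt1 (-1.22), which acts on gangliosides, B4galnt3 (-2.14) and St3gal5 (-1.84), all higher in organoids. With that library kept, and without any 1 of the 4 arrays compared, A4gnt was not called (adjusted p 0.0817 to 0.141), and 3 to 4 members were. Muc5ac, the surface mucin, was 198-fold higher in these organoids (-7.63, SE 0.17, adjusted p = 4.57e-08). In the single Sto organoid array in Sto medium the level of A4gnt was 7.26, of Fut4 5.69, of B3galt5 3.27 and of Muc5ac 3.59, values with no replicate.

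For small intestine 1 of 72 members was called (1.39%), beside 0.159% of all genes (0.122% higher in SCs and 0.0372% lower), and the arrays did not overlap for 9 members (12.5%), beside 9.32%. St6galnac4 was 3.24-fold higher in control SI SCs than in SI organoids in SI medium, at 6.02, 5.85 and 5.98 against 3.92, 4.53 and 4.31 (1.70, SE 0.19, adjusted p = 0.0148). Without the library that goes against its label, 7 members were called (9.72%), beside 5.11% of all genes (2.18% higher in SCs and 2.93% lower), and the arrays did not overlap for 23 (31.9%), beside 27.2%. St6galnac4 (1.53, adjusted p = 0.000981), St6galnac6 (1.22), St3gal4 (3.15), Fut2 (2.12) and Galnt3 (1.10) were higher in SCs, whereas Gcnt4 (-2.76) and B3gnt7 (-2.57) were higher in organoids. With that library, St6galnac4 was not called once control SI SCs 1 or control SI SCs 3 was left out (adjusted p = 0.122 and 0.068), nor with sex as a term (adjusted p = 0.271) or without both rounded arrays (adjusted p = 0.124).

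Whether the effect of origin differed between SCs and organoids was tested as a difference of differences. It was called for 2 of 72 members (2.78%), beside 0.845% of all genes (0.478% with a higher effect in SCs and 0.367% with a lower one). The origin effect on Fut4 was -0.49 in SCs, without a call, and 3.37 in organoids, a difference of -3.86 (SE 0.44, adjusted p = 0.00816). B3galt5 differed by -0.04 in SCs and by 2.77 in organoids, a difference of -2.81 (SE 0.45, adjusted p = 0.0274). Without the library that goes against its label these were -3.85 (adjusted p = 0.00202) and -2.55 (adjusted p = 0.00576), and 8 members were called (11.1%, beside 4.54% of all genes, 2.88% higher and 1.66% lower): Gcnt4 (3.39) and B4galnt4 (2.63) in 1 direction, and Galnt7, B4galnt3, Fut2 and St3gal4 in the other together with Fut4 and B3galt5.

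Sto medium was compared with SI medium over organoids of both origins, with 1 array of each origin in Sto medium. Origin and medium were additive terms, so a change with medium in 1 origin only was not tested. By limma 0 of 72 members were called, beside 0% of all genes, while 8 members and 1816 genes had an unadjusted p below 0.05. The smallest of these was that of St3gal2 (1.11, SE 0.18, unadjusted p = 0.000765, adjusted p = 0.387). Without the library that goes against its label, 0 members were called by limma, beside 0.0266% of all genes (0.00531% higher and 0.0213% lower). In that fit 12 members and 2889 of the 18820 genes had an unadjusted p below 0.05. St3gal2 then differed by 1.16 (SE 0.17, adjusted p = 0.111) and A4gnt by 1.89 (SE 0.22, adjusted p = 0.0836). In SI organoids A4gnt was at 7.57 in Sto medium and at 8.53, 5.95 and 5.82 in SI medium, the first being the library that goes against its label. B4galnt2 was at 10.71 in Sto medium and at 3.98, 11.76 and 10.90 in SI medium, in the same order. The array in Sto medium lay within the range of the 3 in SI medium for A4gnt and for B4galnt2. With the library that goes against its label left out, it lay above both remaining arrays for A4gnt and below both for B4galnt2. In Sto organoids, Fut4 was at 5.69 in Sto medium and at 8.28 and 8.03 in SI medium, and B3galt5 at 3.27 against 6.22 and 6.77. In SI organoids, Fut4 was at 5.28 against 4.76, 4.28 and 5.33, and B3galt5 at 3.32 against 3.20, 4.39 and 3.60. These genes were picked after their values were seen, and the arrays in Sto medium have no replicate.

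The suppliers, sulfotransferases and acceptors of the pathway were read from a list of 44 measured genes. Between Cdx2null and control SI SCs 1 rose and 2 fell, that is 2.27% and 4.55% of the list beside 0.93% and 0.595% of all genes, with a median difference of 0.07 beside 0.03. The sulfotransferase Chst4, which sulfates N-acetylglucosamine, had levels of 7.79, 7.66 and 7.47 in control SI SCs, 3.95 and 3.72 in Cdx2null SI SCs and 3.66 and 4.04 in control Sto SCs, lower in Cdx2null (-3.80, SE 0.18, adjusted p = 0.000694) and 13.8-fold lower in Sto SCs (-3.79, SE 0.18, adjusted p = 0.000715). Its groups did not overlap. The membrane mucin Muc13 fell 67.9-fold in Cdx2null SI SCs (-6.09, SE 0.42, adjusted p = 0.00181) and Muc1 rose 31.3-fold (4.97, SE 0.54, adjusted p = 0.00782). In control Sto SCs 2 of 44 were higher (4.55%, beside 1.94% of all genes; Muc1 and Muc6) and 3 lower (6.82%, beside 0.914%; Chst4, Muc13 and the membrane mucin Muc3, -3.42, adjusted p = 0.0361). None of the 13 sugar nucleotide genes, the 4 Golgi carriers or the C1galt1 chaperone C1galt1c1 was called in either comparison. In Sto organoids in SI medium, Abo, which adds the blood group A or B sugar, was 10.8-fold higher than in SI organoids (3.43, SE 0.43, adjusted p = 0.0444), and Muc5ac 356-fold higher (8.47, SE 0.19, adjusted p = 0.00209), 2 of 44 (4.55%, beside 1.41% of all genes). Without the library that goes against its label, 8 of 44 were higher and 5 lower (29.5%, beside 13.9%), with Abo at 3.74 (adjusted p = 0.00131), Muc5ac at 8.58 (adjusted p = 5.29e-05) and Chst4 at -4.11 (adjusted p = 0.00015). Sto SCs had 1.19 more Gne, the first enzyme of sialic acid synthesis, than Sto organoids on the log2 scale (adjusted p = 0.00891), and less Abo (-2.32) and Mgat3 (-2.11). Without the library that goes against its label, 3 of 44 were higher in Sto SCs and 5 lower (18.2%, beside 9.23% of all genes).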

How the data were processed

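Each of 14 samples in 7 groups was run on 1 Affymetrix Mouse Gene ST 1.1 array. The authors deposited log2 values of 35556 probe sets, computed in Affymetrix Power Tools by RMA-sketch (version not given in the sources used here), a background correction, quantile normalisation and probe summary, and these were used as deposited. Gene symbols came from GEO's platform annotation, with symbols updated by Entrez ID from a RefSeq table of GRCm38.p6. Probe sets listing several genes (1881) or none (12457) were left out, and the probe set with the highest mean stood for each of 1386 genes with several, leaving 18820 genes. For SI organoids in SI medium 3 and control SI SCs 3, 100% of log2 values came from linear values kept to 1 decimal (within 0.001), against at most 0.231% elsewhere. The number of arrays limits the precision.

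Comparisons were fitted with limma 3.58.1 in R 4.3.3 (lmFit, eBayes, 2-sided, Benjamini-Hochberg over all genes): the SC comparisons on 7 SC arrays, origin and medium on 7 organoid arrays, and SCs against organoids and the difference of origin effects on all 14. The methods' t-test, other scalings and filters, and omitted arrays were alternatives. The fits were tested on simulated data. Named were members called among SCs or for origin in organoids, and A4gnt, Fut1, Fut2, Gcnt1, Gcnt3, B3gnt6, B3gnt3, C1galt1, B4galnt2, B4galnt3, B3galt5, St6galnac1, Galnt1, Galnt3 and Galnt12. Members, lists and motifs were chosen with earlier results of these data known.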

Additional observations from a re-analysis of the deposited data

Results flagged for a closer look

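The effect of origin (stomach minus small intestine) differed between sorted SCs and whole organoids in SI medium for 2 members, by a test of that difference in limma. For Fut4 the effect in SCs minus the effect in organoids was -3.86 (SE 0.44, adjusted p = 0.00816), and for B3galt5 it was -2.81 (SE 0.45, adjusted p = 0.0274). Both genes were above the range of all other arrays on the 2 Sto organoid arrays in SI medium, which are also the 2 arrays with the highest pit cell markers (12.46 and 12.53) and the lowest Lgr5 (4.20 and 4.32); the part of these in the difference was not tested. Fut4 lost its call without control Sto SCs 1 (-3.75, adjusted p = 0.0514). B3galt5 lost it without any of 7 arrays in turn (adjusted p 0.0525 to 0.122).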

How the results depend on the processing

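No called difference of a named member changed sign under any alternative run. Over named members and settings, 2206 values kept their side of the threshold, 59 gained and 59 lost a call. Changes of sign among values without a call were not counted. For Cdx2null against control SI SCs the 2 members called became 5 with arrays centred on their medians, 6 with the methods' t-test unadjusted and 0 after adjustment, 1 in a fit on all 14 arrays and 4 with a term for sex, and 2 to 3 without single arrays. For control Sto against control SI SCs the 4 members became 9 (centred; 4 higher, 5 lower), 8 (quantile; 2 higher, 6 lower), 7 with dim genes left out (4 higher, 3 lower), 8 and 0 (t-test unadjusted and adjusted), 1 (all 14 arrays), and 1 to 3 without single arrays. For Cdx2null against Sto SCs and for the medium the count was 0 under every alternative run. For origin in organoids the 2 members became 5 and 0 (t-test), 7 (all 14 arrays), 13 without the library labelled SI organoids in SI medium 1 and the rounded arrays, and 0 to 22 without single arrays; a term for sex could not be fitted. For SI SCs against SI organoids the 1 member became 2 (quantile), 0 (dim genes left out), 3 and 0 (t-test), 0 (sex), 0 (without the rounded arrays), 4 (without that library too), and 0 to 7 without single arrays. For Sto SCs against Sto organoids the 6 members became 10 and 0 (t-test), 11 (without that library and the rounded arrays), and 3 to 4 without single arrays. For the difference of origin effects the 2 members became 1 (sex), 1 (without the rounded arrays), 7 (without that library too), and 0 to 8 without single arrays. Shares of all genes moved too: from 1.52% to 2.43% (centred), 2.65% (t-test unadjusted), 0.0213% (all 14 arrays) and 1.1% (sex) for Cdx2null against control SI SCs, and from 2.86% to 4.26% (centred), 3.37% (quantile), 6.05% (dim genes left out), 4.4% (t-test unadjusted), 0.154% (all 14 arrays) and 2.66% (block) for Sto against SI SCs. They went from 1.41% to 5.43% (t-test unadjusted) and 6.1% (all 14 arrays) for origin in organoids. SI SCs against SI organoids went from 0.159% to 0.388% (quantile), 1.17% (t-test unadjusted) and 0.0213% (without the rounded arrays). Sto SCs against Sto organoids went from 6.03% to 8.02% (t-test unadjusted) and 7.28% (block). The difference of origin effects went from 0.845% to 0.298% (without the rounded arrays) and 1.26% (block). Where a group fell to 1 array, it was assumed to vary like the others. Cause was not tested. Centring moved the median gene of Cdx2null against control SI SCs from 0.03 to -0.10. The sex and array-pair alternatives were chosen after seeing the data. Same-numbered arrays share only a number: with the replicate number as a block, members called were 2 (Cdx2null against control SI SCs), 7 (Sto against SI SCs, 3 higher and 4 lower), 0 (origin in organoids), 1 (SI SCs against organoids), 8 (Sto SCs against organoids) and 3 (difference of origin effects), and the deviations of same-numbered arrays correlated at r from 0.23 to 0.38 over the 3 pairs of SC groups and from -0.20 to 0.38 over all 10 pairs of groups, with 2 shared numbers in each pair.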
